A study of Mus musculus with 2 samples.

Results

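The genes described here make cholesterol, control its synthesis, and release, store and export it, in untransformed mouse myeloid progenitors. They are 32 gene symbols chosen by their place in the pathway, matched exactly to the gene names of the deposited table, and all 32 were found among its 23988 genes. The label of the list also names uptake, but its members hold the lysosomal genes that free cholesterol after uptake and no surface receptor, so some receptors are given from a wider list. The list was drawn up with values of these libraries known, so its levels and differences are descriptions. The study has 1 group of 2 libraries, replicate 1 and replicate 2, both from C57BL/6 bone marrow depleted of lineage-positive cells and cultured for 7 days in IL3, SCF and IL6, with no further treatment. The series title concerns HOXA9/MEIS1 leukemia cells, which were not analysed here. Whether the libraries came from separate mice or cultures is not given, so it is not known what the spread between them measures. Values are RPKM, read numbers scaled by gene length and by library size. From the steps between low values, the library size behind them was 29941063 reads for replicate 1 and 28793666 reads for replicate 2. Of the genes of progenitors, Kit had 21.2 RPKM in replicate 1 and 26.2 RPKM in replicate 2, and Cd34 had 14.5 RPKM in replicate 1 and 19.5 RPKM in replicate 2. All 9 neutrophil marker genes listed reached 1 RPKM in both, against 43.5% of all genes. The highest were S100a9 with 26131 RPKM in replicate 1 and 18619 RPKM in replicate 2 and S100a8 with 17987 RPKM in replicate 1 and 13323 RPKM in replicate 2. Of the 9, 6 were higher in replicate 1 and 3, Camp, Ngp and Ltf, in replicate 2, with a median log2 ratio of replicate 1 over replicate 2 of 0.29. Of all genes with a mean of 1 RPKM or more, 55.9% were higher in replicate 1, so nothing is read from this split.

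Cells build cholesterol from acetyl-CoA through mevalonate, farnesyl diphosphate and squalene, and the ring formed from squalene is then trimmed to cholesterol. When sterol in the endoplasmic reticulum is low, SCAP carries the SREBP transcription factors to the Golgi, where they are cut free to switch on the synthesis genes. When sterol is plentiful, INSIG proteins hold SCAP back, and oxidised sterols activate the nuclear receptors LXR alpha and LXR beta, which switch on the exporters ABCA1 and ABCG1. Macrophages are known for strong sterol export, and dividing cells for strong synthesis.

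Promoter windows bear on these members because NF-Y, which binds the CCAAT box, is known to act with SREBP at many synthesis genes. Windows of 300 bases, from 250 before the gene start to 50 after it, came from RefSeq on build GRCm38.p6 and were at hand for 26 of the 32 members. The 4 windows printed here show an enzyme gene with a pair of CCAAT boxes (Idi1), another with a single box (Cyp51), the member with an exact match to the sterol regulatory element searched (Hmgcs1), and an exporter gene with neither (Abca1). They are written 5′ to 3′ on the gene's strand, and capitals mark CCAAT or its reverse complement and, in Hmgcs1, also the sterol regulatory element. Idi1 lies at chr13:8885356-8885655 on the plus strand, Cyp51 at chr5:4104648-4104947 on the minus strand, Hmgcs1 at chr13:119690101-119690400 on the plus strand, and Abca1 at chr4:53159846-53160145 on the minus strand.
Idi1: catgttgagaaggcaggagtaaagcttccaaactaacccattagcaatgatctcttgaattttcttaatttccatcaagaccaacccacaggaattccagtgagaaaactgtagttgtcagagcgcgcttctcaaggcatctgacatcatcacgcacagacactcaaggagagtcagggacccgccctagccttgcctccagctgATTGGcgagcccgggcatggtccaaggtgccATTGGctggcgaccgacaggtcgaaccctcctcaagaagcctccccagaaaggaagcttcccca
Cyp51: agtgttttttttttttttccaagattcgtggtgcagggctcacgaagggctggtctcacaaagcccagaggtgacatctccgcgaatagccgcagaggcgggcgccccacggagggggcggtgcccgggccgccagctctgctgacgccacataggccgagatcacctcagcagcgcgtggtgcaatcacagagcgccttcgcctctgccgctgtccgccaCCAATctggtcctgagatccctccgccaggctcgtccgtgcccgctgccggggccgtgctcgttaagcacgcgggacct
Hmgcs1: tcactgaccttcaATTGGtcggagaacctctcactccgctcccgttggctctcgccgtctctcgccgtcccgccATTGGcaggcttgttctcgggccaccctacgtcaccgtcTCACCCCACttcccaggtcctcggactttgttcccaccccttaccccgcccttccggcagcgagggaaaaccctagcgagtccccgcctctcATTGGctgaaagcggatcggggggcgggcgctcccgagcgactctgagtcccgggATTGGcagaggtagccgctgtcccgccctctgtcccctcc
Abca1: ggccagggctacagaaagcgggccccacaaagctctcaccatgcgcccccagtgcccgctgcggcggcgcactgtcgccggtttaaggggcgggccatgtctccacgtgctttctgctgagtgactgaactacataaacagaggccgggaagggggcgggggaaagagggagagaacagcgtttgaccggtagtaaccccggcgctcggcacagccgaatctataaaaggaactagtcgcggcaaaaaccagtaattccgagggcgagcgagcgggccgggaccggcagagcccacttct
In Idi1 the boxes start 45 and 14 bases before the gene start, and in Cyp51 the box starts 29 bases before it. Of the 15 synthesis genes with a window, 14 held CCAAT on either strand (93.3%), against 41.1% of the 27025 genes with a window, and Acat2 was the one without. The motif was also in 4 of 5 genes of SREBP control and in all 3 windowed genes of lysosomal release and storage, and in none of the 3 windowed genes of LXR and export. The sterol regulatory element, searched as TCACNCCAC on both strands, was in Hmgcs1 alone among members, against 1.44% of all genes. The LXR element DR4, AGGTCA repeated with NNNN between the copies and searched on both strands, was in no member window and in 4 of all genes. A match of letters does not show that a factor binds there.

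All listed genes but 1 were expressed in both libraries, and that gene was listed at 0. Of the 32 members, 31 reached 1 RPKM in both libraries (96.9%), against 43.5% of all genes. The median level of the members was 36.6 RPKM in replicate 1 and 29.4 RPKM in replicate 2, against 4.19 and 4.75 RPKM over the 16777 genes above 0 in either library. The exception was Hmgcs1, the cytosolic HMG-CoA synthase, listed at 0 in both libraries. The other 6 member genes of the mevalonate arm were above 0, and an exact 0 in a table without counts can be a failed count.

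**Figure D1:**
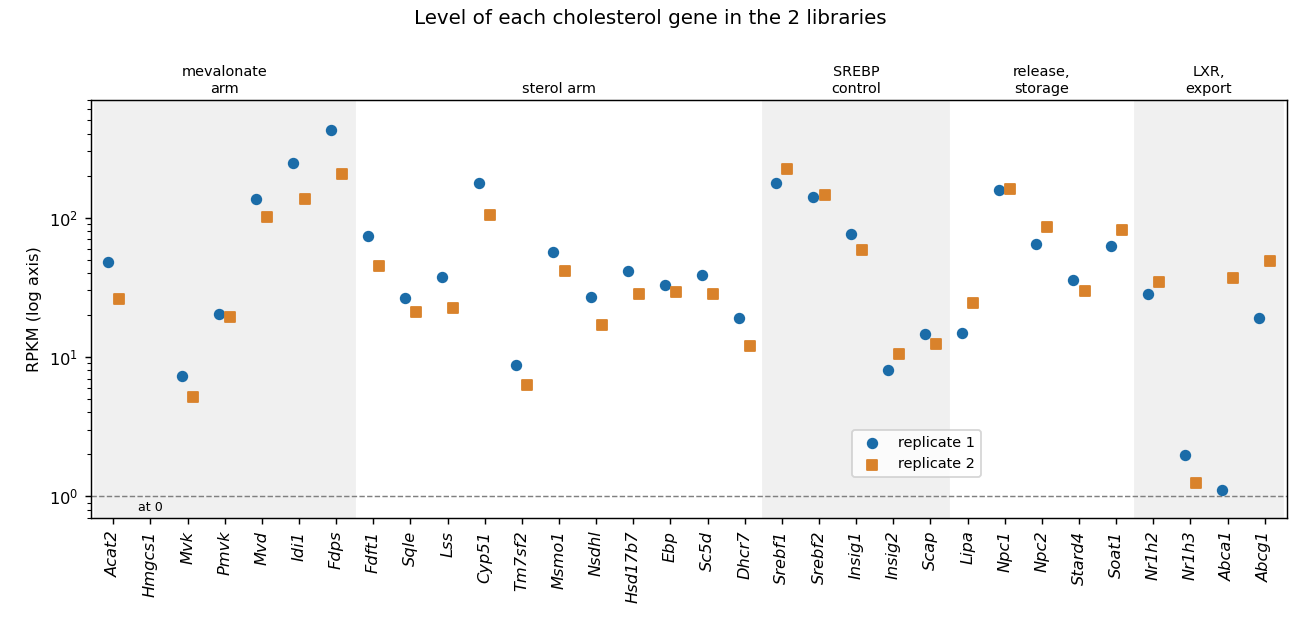
RPKM on a log axis of the 32 members in replicate 1 (circles) and replicate 2 (squares), grouped by role. The dashed line is 1 RPKM; Hmgcs1 is listed at 0, the 17 other synthesis genes are higher in replicate 1, and Abca1 stands at 1.11 RPKM in replicate 1 against 36.9 in replicate 2.

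The mevalonate arm, which makes the isoprenoid building blocks, held the 2 most expressed of the synthesis enzyme genes among the members. Fdps, which makes farnesyl diphosphate, stood at 424 RPKM in replicate 1 and 207 RPKM in replicate 2. Idi1, which isomerises the isopentenyl unit, stood at 248 RPKM in replicate 1 and 137 RPKM in replicate 2. By mean RPKM they ranked 263 and 460 among all genes of the table. Mvd, the decarboxylase that makes that unit, stood at 137 RPKM in replicate 1 and 101 RPKM in replicate 2. Acat2, the thiolase that starts the pathway, stood at 47.9 RPKM in replicate 1 and 26.2 RPKM in replicate 2. Acat3, a close copy of Acat2 with which reads may be shared, stood at 0.378 RPKM in replicate 1 and 0.115 RPKM in replicate 2. The kinase genes lay lower. Pmvk stood at 20.2 RPKM in replicate 1 and 19.3 RPKM in replicate 2, and Mvk at 7.33 RPKM in replicate 1 and 5.17 RPKM in replicate 2.

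In the sterol arm, Cyp51 stood out by level and the other enzymes lay within a narrower band. Cyp51, the lanosterol demethylase, stood at 178 RPKM in replicate 1 and 104 RPKM in replicate 2. Fdft1, which makes squalene, stood at 73.3 RPKM in replicate 1 and 44.8 RPKM in replicate 2. Sqle, the epoxidase that commits squalene to sterols, stood at 26.6 RPKM in replicate 1 and 21.1 RPKM in replicate 2. Lss closes the sterol ring, and its gene had 37.7 RPKM in replicate 1 and 22.3 RPKM in replicate 2. The next enzymes remove further methyl groups from the ring. Msmo1 stood at 56.7 RPKM in replicate 1 and 41.3 RPKM in replicate 2, and Nsdhl at 27.0 RPKM in replicate 1 and 16.8 RPKM in replicate 2. Hsd17b7, which reduces the ketone left behind, had 41.5 RPKM in replicate 1 and 28.4 RPKM in replicate 2. Ebp, the isomerase, stood at 32.9 RPKM in replicate 1 and 29.1 RPKM in replicate 2, and Sc5d, the desaturase, at 39.0 RPKM in replicate 1 and 28.4 RPKM in replicate 2. Dhcr7, which makes cholesterol from its last precursor in one branch, had 19.0 RPKM in replicate 1 and 11.99 RPKM in replicate 2. Tm7sf2, a sterol reductase, was the lowest of the arm at 8.71 RPKM in replicate 1 and 6.31 RPKM in replicate 2. Lbr, a lamin B receptor that carries the same reductase activity, stood at 590 RPKM in replicate 1 and 545 RPKM in replicate 2. The median of the sterol arm minus that of the mevalonate arm was -0.34 in replicate 1 and 0.11 in replicate 2 on the log2(RPKM + 1) scale, a mean of -0.11 ± 0.32 (SD, n = 2) that is smaller than the spread. With Hmgcs1, whose 0 may be a failed count, left out of the mevalonate arm, the mean was -0.96.

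The synthesis enzymes were higher in replicate 1 without exception among the 17 above 0. In the same direction lay 55.9% of the 10896 genes with a mean of 1 RPKM or more. Ratios are given as replicate 1 over replicate 2. As log2(RPKM + 1), which understates the difference of low genes, the median ratio of these 17 genes was 0.53, against 0.05 for all 10896 genes. Their log2 ratios ran from 0.06 for Pmvk to 1.03 for Fdps. At 1.5-fold, 8 of the 17 were higher in replicate 1 and 0 in replicate 2, against 4.26% and 11.3% of all genes. The 8 were Fdps, Idi1, Acat2, Cyp51, Lss, Fdft1, Nsdhl and Dhcr7, and Fdps alone passed 2-fold, as did 0.734% of all genes. Because the list was chosen with these values known, nothing is read from these shares. Each side is 1 library, so the differences have no replicate check, and no test was made, since exact sign flips of 2 values give no p under 0.5.

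Counting error was small beside these ratios. The smallest whole read numbers that give these values were 6061 and 2843 for Fdps, which put its RPKM ratio at 2.05 with a 95% interval of 1.96 to 2.14. For Cyp51 they were 8143 and 4546, with a ratio of 1.72 and an interval of 1.66 to 1.79. Among the weakest, Ebp had a ratio of 1.13 with an interval of 1.05 to 1.21, whereas the interval of Pmvk, 0.979 to 1.12, included 1. These exact binomial intervals cover counting error only, since each side is 1 library. The reads carry no molecular identifiers, so copies of a molecule may count as separate reads and make the intervals too narrow. Across the 17 enzymes, more expressed genes had larger log2 ratios, with a Spearman rho of 0.63, a description in which level and ratio come from the same libraries. The 4 highest of these 17 enzymes, Fdps, Idi1, Cyp51 and Mvd, were the same in both libraries. They held 69.3% of the summed RPKM of the 17 in replicate 1 and 64.5% in replicate 2.

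**Figure D2:**
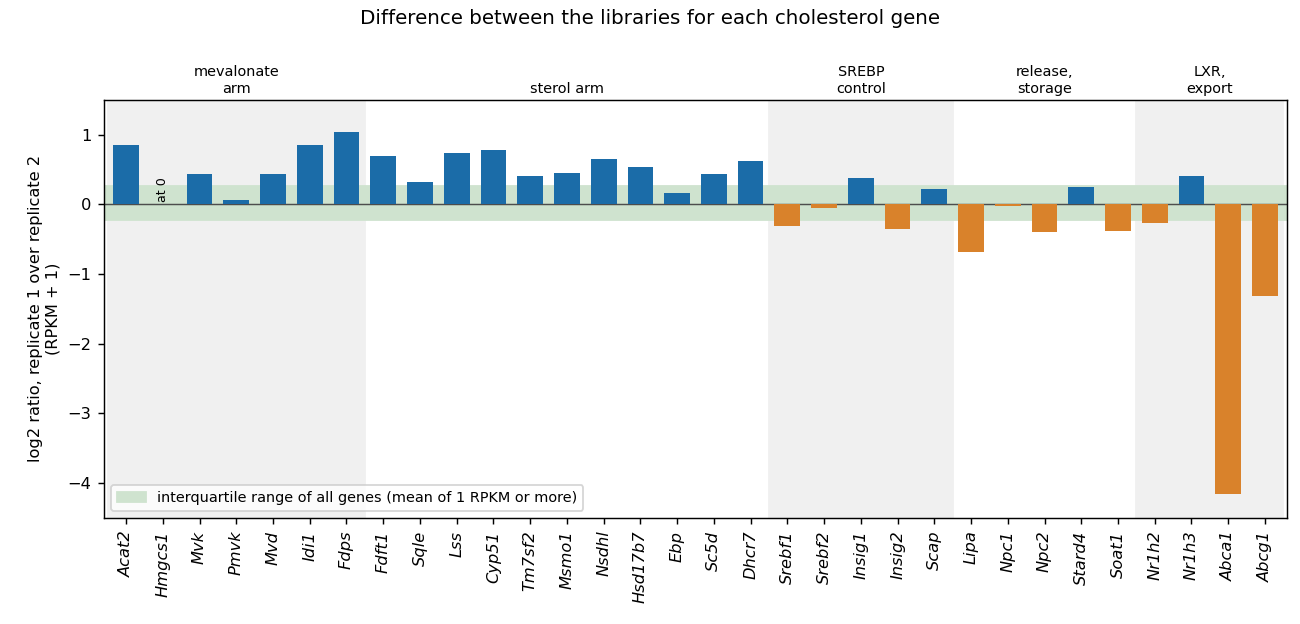
Log2 ratio of replicate 1 over replicate 2 of RPKM + 1 for each member, grouped by role, with bars upward for genes higher in replicate 1. The green band is the interquartile range of the 10896 genes with a mean of 1 RPKM or more, from -0.23 to 0.27; 15 of the 17 bars of the synthesis enzymes end above it, all but Pmvk and Ebp, and Abca1 reaches -4.16.

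Genes of the G1/S phase were higher in replicate 1 as well. All 15 genes of that list were higher in replicate 1, against 55.9% of all genes. The median log2 ratio of the 15 was 0.49, against 0.05 for all genes, with a range of 0.22 to 0.64. The summed level of the G1/S genes was 1240 RPKM in replicate 1 and 858 RPKM in replicate 2. The summed level of the synthesis enzymes was 1425 RPKM in replicate 1 and 850 RPKM in replicate 2. Rrm2, a subunit of ribonucleotide reductase, had the highest level of the list, with 409 RPKM in replicate 1 and 277 RPKM in replicate 2, followed by Mcm3 of the replicative helicase with 117 RPKM in replicate 1 and 76.7 RPKM in replicate 2. The part of cycling cells in the difference was not tested. In bulk RNA, more cells of a kind and more RNA per cell cannot be told apart.

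The genes that control synthesis showed no common direction. Srebf1 and Srebf2 encode SREBP1 and SREBP2, known mainly as regulators of fatty acid and of cholesterol genes. Srebf1 stood at 178 RPKM in replicate 1 and 221 RPKM in replicate 2, and Srebf2 at 141 RPKM in replicate 1 and 146 RPKM in replicate 2. Srebf1 was thus the higher of the pair, 1.26 times Srebf2 in replicate 1 and 1.52 times in replicate 2. Insig1, itself an SREBP target, was higher in replicate 1, at 75.7 RPKM against 58.3 RPKM in replicate 2, a log2 ratio of 0.37. Insig2, its paralog, went the other way at 8.11 RPKM in replicate 1 and 10.6 RPKM in replicate 2, a log2 ratio of -0.35. Insig1 exceeded Insig2 9.34 times in replicate 1 and 5.51 times in replicate 2. Scap, the escort of SREBP, stood at 14.5 RPKM in replicate 1 and 12.3 RPKM in replicate 2. Of the 5 control genes, 2 were higher in replicate 1 and 3 in replicate 2, against 55.9% and 44.1% of all genes. None of the 5 passed 1.5-fold. Of all genes, 4.26% passed towards replicate 1 and 11.3% towards replicate 2, so nothing is read from these counts. On the log2(RPKM + 1) scale the median of the enzymes minus that of the control genes was -0.96 in replicate 1 and -1.07 in replicate 2. The mean difference was -1.02 ± 0.07 (SD, n = 2). This SD covers the shift between the libraries and not the spread among the 5 control genes. With the members of each group averaged, the difference was -0.62.

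Of the 5 genes that release, carry and store cholesterol, 4 were higher in replicate 2, against 44.1% of all genes. Lipa, the lysosomal acid lipase that frees cholesterol from its esters, stood at 14.8 RPKM in replicate 1 and 24.4 RPKM in replicate 2. It was the one member of this group past 1.5-fold, with a log2 ratio of -0.68, and it did not reach 2-fold. Of all genes, 11.3% passed 1.5-fold towards replicate 2, so nothing is read from this count. Npc2 and Npc1 encode the proteins that pass the freed cholesterol out of the lysosome. Npc2 stood at 64.9 RPKM in replicate 1 and 86.1 RPKM in replicate 2. Npc1, a membrane protein of late endosomes, was the highest of the group and near equal, at 157 RPKM in replicate 1 and 160 RPKM in replicate 2. Soat1, which makes cholesterol esters for storage, stood at 62.5 RPKM in replicate 1 and 82.1 RPKM in replicate 2. Stard4, a carrier of cholesterol in the cytosol and a known SREBP target, was the exception in direction, at 35.5 RPKM in replicate 1 and 29.6 RPKM in replicate 2. On the log2(RPKM + 1) scale the median of the enzymes minus that of this group was -0.69 in replicate 1 and -1.55 in replicate 2. The mean was -1.12 ± 0.61 (SD, n = 2), within 2 SD of 0.

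The exporter genes differed most between the libraries, and in the direction opposite to the enzymes. Abca1, which loads cholesterol onto apolipoprotein A-I, stood at 1.11 RPKM in replicate 1 and 36.9 RPKM in replicate 2. It was 33.1-fold lower in replicate 1, from at least 27 reads in replicate 1 and 859 in replicate 2, with a counting interval of 22.6-fold to 50.5-fold. These are the smallest read numbers that fit, and the interval is too wide if the true ones are larger. By log2 ratio, -4.16, Abca1 ranked 6 from the bottom of the 10896 genes. Abcg1, which exports cholesterol to mature HDL particles, stood at 19.1 RPKM in replicate 1 and 49.1 RPKM in replicate 2. It was 2.58-fold lower in replicate 1, with an interval of 2.42-fold to 2.75-fold. In all, 2 of the 4 genes of LXR and export passed 2-fold towards replicate 2, as did 5.3% of all genes.

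The receptor genes that control export differed far less than the exporters, with log2 ratios of -0.27 for Nr1h2 and 0.41 for Nr1h3. Nr1h2, which encodes LXR beta, stood at 28.2 RPKM in replicate 1 and 34.3 RPKM in replicate 2. Nr1h3 encodes LXR alpha, known as the LXR of macrophages and liver. It was low, at 1.99 RPKM in replicate 1 and 1.25 RPKM in replicate 2. The fitted read numbers were 277 and 167. At this fit the gene would be longer than its 2515 annotated exon bases, so the true numbers may be lower. Nr1h2 exceeded Nr1h3 14.2 times in replicate 1 and 27.4 times in replicate 2. Rxra, a partner of LXR, stood at 2.96 RPKM in replicate 1 and 7.14 RPKM in replicate 2, and Rxrb, the partner with the higher level, at 59.1 RPKM in replicate 1 and 63.0 RPKM in replicate 2. On the log2(RPKM + 1) scale the median of the enzymes minus that of the LXR and export genes was 2.34 in replicate 1 and -0.37 in replicate 2. The order of these groups thus differed between the libraries.

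Markers of macrophages and of mast cells were also lower in replicate 1. Of all genes with a mean of 1 RPKM or more, 44.1% lay in that direction, and their median log2 ratio was 0.05. Of the 12 macrophage and monocyte markers, the 11 with a mean of 1 RPKM or more were all lower in replicate 1, with a median log2 ratio of -1.65, and Cd163 stood at 0.0967 RPKM in replicate 1 and 0.131 RPKM in replicate 2. Their summed level was 738 RPKM in replicate 1 and 2863 RPKM in replicate 2. Lyz2, lysozyme, made up most of it with 442 RPKM in replicate 1 and 1853 RPKM in replicate 2, and F13a1, a coagulation factor of monocytes, had 25.9 RPKM in replicate 1 and 262 RPKM in replicate 2. The 10 mast cell markers summed to 39.7 RPKM in replicate 1 and 804 RPKM in replicate 2, and the 6 with a mean of 1 RPKM or more were all lower in replicate 1. The highest, the proteases Mcpt2 and Cma1, had 4.97 and 3.55 RPKM in replicate 1 against 402 and 211 RPKM in replicate 2. Mrgprb2, a receptor gene of mast cells, was listed at 0 in replicate 1 and at 0.099 RPKM in replicate 2. All 6 basophil markers were lower in replicate 1 too, summing to 1054 RPKM in replicate 1 and 2060 RPKM in replicate 2, mostly from the proteases Mcpt8, with 668 RPKM in replicate 1 and 1567 RPKM in replicate 2, and Prss34, with 324 RPKM in replicate 1 and 382 RPKM in replicate 2. The part of these cells in the levels of Abca1, Abcg1 and Lipa was not tested.

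**Figure D3:**
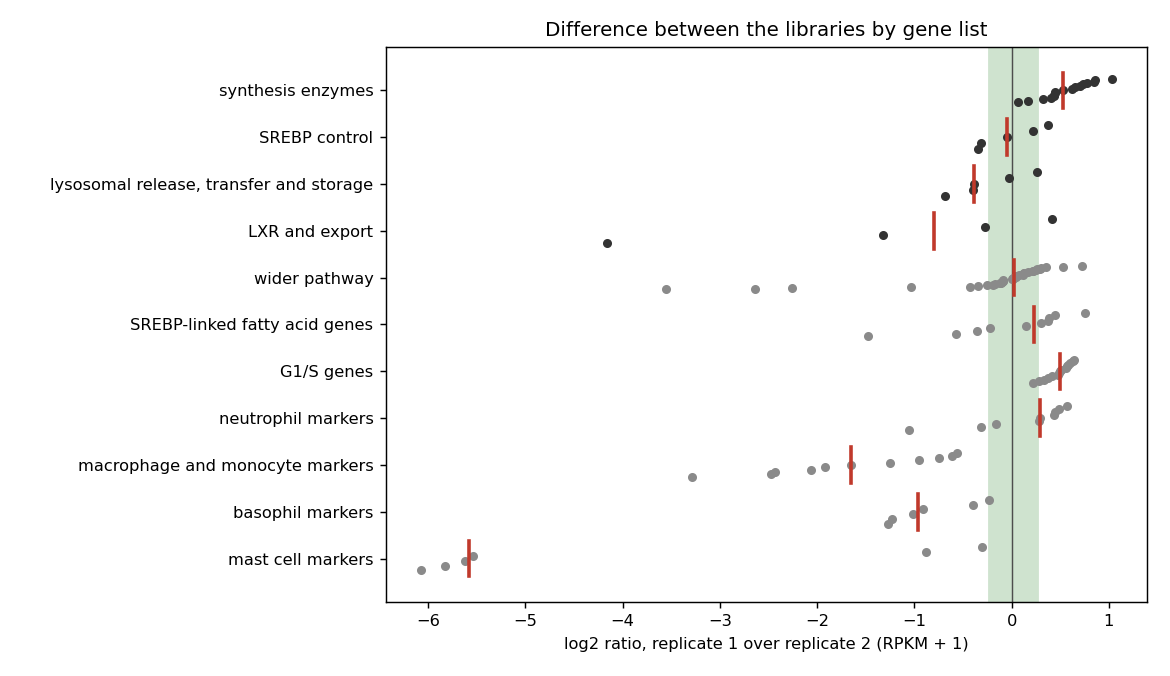
Log2 ratio of replicate 1 over replicate 2 of RPKM + 1, 1 point per gene with a mean of 1 RPKM or more, with the median of each list as a red line and the interquartile range of all genes as a green band. The medians are 0.53 for synthesis enzymes and 0.49 for G1/S genes, against -0.80 for LXR and export and -1.65 for macrophage and monocyte markers.

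The wider pathway, 45 further genes of isoprenoid use, SREBP processing, receptors, transfer and breakdown, showed little difference as a whole. Of these, 36 reached 1 RPKM in both libraries (80%), against 43.5% of all genes. The 36 with a mean of 1 RPKM or more had a median log2 ratio of 0.03, against 0.05 for all genes. Lbr, Nus1 and Gramd1a were among the 4 with the highest levels. Nus1, a subunit of the enzyme that makes dolichol, stood at 254 RPKM in replicate 1 and 218 RPKM in replicate 2. Gramd1a, a carrier of cholesterol from the plasma membrane, stood at 118 RPKM in replicate 1 and 99.1 RPKM in replicate 2. Both lay within 1.5-fold between the libraries. Idi2, a copy of Idi1 known from muscle, was listed at 0 in both libraries.

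Genes of lipoprotein receptors went different ways. Lrp8 was higher in replicate 1, at 19.7 RPKM against 11.6 RPKM in replicate 2, and was the one gene of the wider list past 1.5-fold in that direction. Vldlr stood at 1.52 RPKM in replicate 1 and 28.5 RPKM in replicate 2, from at least 17 and 307 reads. Lrp1, a scavenger receptor known from macrophages, stood at 20.3 RPKM in replicate 1 and 101 RPKM in replicate 2. Together with Apoe, an acceptor of exported cholesterol, at 3.63 RPKM in replicate 1 and 27.7 RPKM in replicate 2, and with Rxra, they made up the 4 genes of the list past 1.5-fold towards replicate 2. These counts are of the 36 genes of the list with a mean of 1 RPKM or more. Of all genes with that minimum, 4.26% passed towards replicate 1 and 11.3% towards replicate 2, so nothing is read from the counts. Mylip, a ubiquitin ligase gene and LXR target, stood at 24.5 RPKM in replicate 1 and 29.3 RPKM in replicate 2.

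Some of these values could hold reads of neighbouring genes, because how overlaps were counted is not given. In GENCODE vM21 on GRCm38, 6 members share over 5% of their exon bases with another gene. Fdps shares 26.7% with the predicted gene Gm43738 on the same strand, and Fdft1 shares 18.3% with Ctsb, a cathepsin gene on the opposite strand. Ctsb was higher in replicate 2, at 212 RPKM in replicate 1 and 403 RPKM in replicate 2, the direction opposite to that of Fdft1. Scap shares 13.2%, Hmgcs1 12.1%, Tm7sf2 12.1% and Idi1 9.22% with other genes.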

How the data were processed

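RNA-seq libraries of 2 samples of 1 group were analysed. Per the labels' protocols, total RNA was column-purified with DNase treatment and made into libraries with an Illumina TruSeq RNA kit. The authors deposited RPKM values with a column for each library. Trimmomatic 0.32, TopHat2, HTSeq and edgeR, with build mm9, were used per the submitters' processing notes. Settings, annotation, gene lengths and strand mode were not given in the sources used here. Columns were matched to samples by name. Of 24015 rows, 27 named like dates were left out (0.109% of the summed RPKM in each library).

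Members and lists were chosen with earlier results of these data known; Kit and Cd34 were added after values were seen. All members are named. From the wider list, the 4 highest and, at a mean of 5 RPKM or more, the 3 largest ratios in each direction are named, with the 2 highest of each fatty acid or marker list. Some genes that this rule takes, though counted in the list totals, are left out of the text. Other genes, Rxrb, Mylip, Ctsb and Acat3 among them, were named after their values were seen. Detection meant 1 RPKM in both libraries. Ratios used a pseudocount of 1 and a minimum mean of 1 RPKM. The 10 highest genes held 15% of the summed RPKM in replicate 1 and 12.3% in replicate 2, which lowers all other values by different amounts.

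The library size ratio, 0.962, is the one shared by 436 genes with equal read numbers (tolerance 1e-05). The scale is the value that 58 candidates from genes with 1 GENCODE vM21 transcript shared (tolerance 1e-06). Sizes may include a normalisation factor. Read numbers are the smallest that fit a whole gene length of at least 200 bases. They may be fractions of the true ones, in which case their intervals are too wide. Where the fitted length exceeds the annotated exon bases, as for Nr1h3, they may be too high. The interval is then too narrow. The recovery was tested on simulated data. Analyses used Python 3.11.15, pandas 2.3.3 and scipy 1.17.1. Alternatives covered the pseudocount, filters, thresholds, means, scaling and each library alone.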

Additional observations from a re-analysis of the deposited data

How the results depend on the processing

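Each result was recomputed under other settings, 437 values in all. For ratios, which have no replicates, a shift under 0.1 on the log2 scale was counted as no move, and 150 of 154 values for single members kept their direction and stayed within it. All 17 synthesis enzymes above 0 were higher in replicate 1 under every pseudocount, minimum and scaling tried. With a 2-fold threshold 1 member passed towards replicate 1, an enzyme, in place of 8. Rescaling without the 10 highest genes moved the median of all genes by 0.05 and turned Srebf2, and with it the median of SREBP control, to 0.0040 and Npc1 to 0.024. Averaged over all members, the log2 ratio was 0.089, against a median of 0.37. For LXR and export the median log2 ratio moved to -1.32 when genes under 5 RPKM were left out, and the average was -1.34. In that group 2 genes reached 5 RPKM in both libraries, 1 passed 1.5-fold towards replicate 1 with a pseudocount of 0.1, and 0 were higher in replicate 1 with the minimum of 5 RPKM, since Nr1h3 then drops out. The difference of sterol arm minus mevalonate arm, -0.11 ± 0.32 (SD, n = 2), lay between -0.34 and 0.11 in single libraries and was -0.96 with Hmgcs1 left out, whether as a gene at 0 or by the minimum of 1 RPKM. That of synthesis enzymes minus LXR and export lay between -0.37 and 2.34. Synthesis enzymes minus SREBP control, -1.02 from medians over members, was -0.62 when the members of each group were averaged. No paired analysis was possible because there is 1 group. Annotated lengths limit comparison of levels between genes. The fitted read numbers of genes such as Abca1 and Vldlr in replicate 1 are low. They may be fractions of the true ones, so the precision of these genes is not known.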

Other observations

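Genes of fatty acid synthesis, which SREBP1 is known to regulate, did not share one direction. Of the 11 genes of this list, 10 reached 1 RPKM in both libraries (90.9%), against 43.5% of all genes. The median of their log2 ratios, replicate 1 over replicate 2, stood at 0.23, against 0.05 for all genes. Of the 10, 6 were higher in replicate 1 and 4 in replicate 2, against 55.9% and 44.1% of all genes. Scd1, a desaturase that makes oleate and a known target of both SREBP1 and LXR, stood at 378 RPKM in replicate 1 and 1051 RPKM in replicate 2. Its paralog Scd2 stood at 447 RPKM in replicate 1 and 664 RPKM in replicate 2. Fasn, the fatty acid synthase, went the other way at 135 RPKM in replicate 1 and 99.02 RPKM in replicate 2, as did Elovl6, an elongase, at 9.52 RPKM in replicate 1 and 5.23 RPKM in replicate 2. Scd1 and Elovl6 were the genes of the list past 1.5-fold, in opposite directions. Of all genes, 4.26% passed towards replicate 1 and 11.3% towards replicate 2. Srebf1 itself stood at 178 RPKM in replicate 1 and 221 RPKM in replicate 2.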
